A study of Mus musculus with 2 samples.

Results

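The clustered protocadherins are a family of neuronal adhesion genes laid out in 3 neighbouring clusters, alpha, beta and gamma. The members were taken by symbol from both count files: Pcdha followed by a number or c and a number, Pcdhb followed by a number, and Pcdhga, Pcdhgb or Pcdhgc followed by a number. This gave 57 of the 32531 gene symbols, with 14 in the alpha cluster, 22 in the gamma cluster and 21 in the beta cluster. Both libraries came from the ventral striatum of adult, untreated Stard5-EGFP/Rpl10a mice of line JX5852. In these mice, regulatory sequence of Stard5 drives ribosomal protein L10a fused to EGFP, and RNA on tagged ribosomes was pulled down with an antibody against EGFP (TRAP) and sequenced. Both belong to the same group, and reads in genes numbered 25830282 in replicate 1 and 29574781 in replicate 2. Whether the libraries stem from separate animals or from pools is not labelled, so SDs may reflect technical spread alone. The p-values take in counting error only, and no input library was analysed here.

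Each clustered protocadherin carries extracellular cadherin repeats that bind the same isoform on a neighbouring membrane, and single neurons choose a small set of isoforms by promoter choice, which gives their branches an identity for self-avoidance. In the alpha and gamma clusters, each isoform begins in a variable exon of its own, which is spliced to constant exons shared by the whole cluster, while a beta gene is a single exon with no shared part. Most isoforms are chosen at random by each neuron and are called alternate isoforms. The 5 C-type isoforms, Pcdhac1, Pcdhac2, Pcdhgc3, Pcdhgc4 and Pcdhgc5, follow rules of their own and are not chosen in that random way.

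All 57 members lie on the plus strand of chromosome 18. In the GENCODE M21 annotation of GRCm38 the alpha cluster runs from 36930184 to 37187661, the beta cluster from 37264938 to 37524479 and the gamma cluster from 37661793 to 37841873, together 912 kb. Of the annotated exon of an alpha isoform, 2860 to 3082 bases were shared in GENCODE with another counted gene, mostly in the constant exons. Of a gamma isoform it was 2116 to 3157 bases, again mostly there. The unshared exon of a member, which for alpha and gamma is largely its variable exon, spanned 2285 to 4675 bases in alpha and 1570 to 5508 in gamma. Beta genes shared 0 bases and spanned 2588 to 8695. A read that lies wholly in a constant exon cannot be given to an isoform, so alpha and gamma counts were read as counts of the variable exons, and levels were compared between genes per kilobase of unshared exon.

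The clustered protocadherins were measured at low to moderate levels in both libraries. They held 17495 reads in replicate 1 and 27199 in replicate 2, or 677 and 920 CPM (reads per 1000000 reads in genes), a mean of 798 ± 171 CPM (SD, n = 2). At least 1 CPM was reached by 47 members in replicate 1 and by 54 in replicate 2. In both libraries 23 members reached 10 CPM. The median over all 57 members, with 3 at 0 in both libraries, was 7.20 CPM in replicate 1 and 12.7 CPM in replicate 2. For the 16442 genes with at least 10 reads over both libraries it was 11.1 CPM in each library. The members were not held to that minimum here.

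Gamma isoforms took over 50% of these reads and alpha isoforms the smallest share. The alpha cluster held 5.82% of the clustered protocadherin reads in replicate 1 (Clopper-Pearson 95% interval 5.48 to 6.18) and 4.99% in replicate 2 (4.73 to 5.25). The gamma cluster held 53.4% (52.6 to 54.1) and 55.0% (54.4 to 55.6). The beta cluster held 40.8% (40.1 to 41.6) and 40.0% (39.4 to 40.6). All intervals and floors here are computed from read counts and take in counting error alone. No molecular identifiers separate copies from molecules, so they may be too narrow even for that. The order gamma, beta, alpha was the same in both libraries. The alpha share takes Pcdha4, Pcdha6 and Pcdha7 at counts of 0, which cannot be read as absence. C-type isoforms held 15.6% of the reads in replicate 1 and 16.7% in replicate 2.

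**Figure D1:**
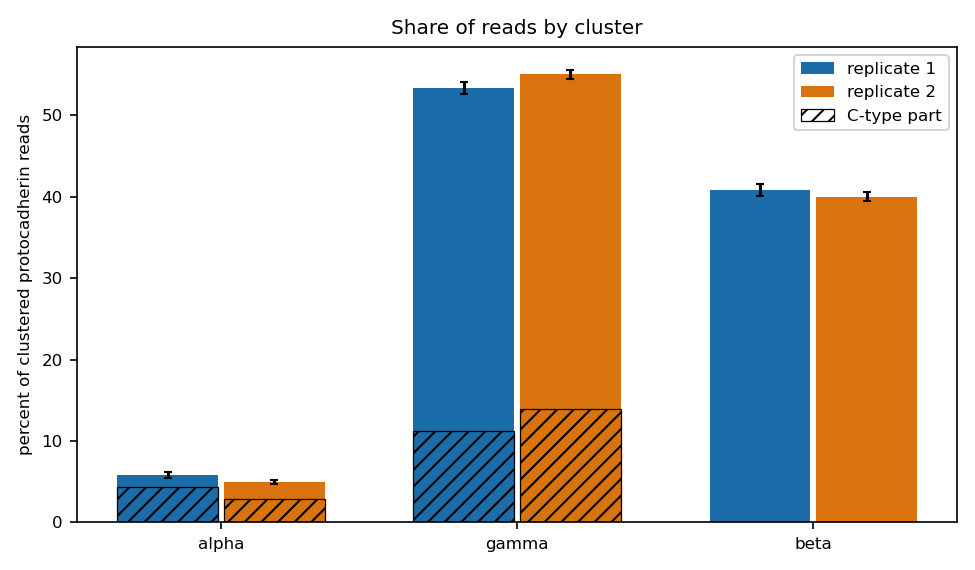
Share of clustered protocadherin reads (percent, y axis) in the alpha, gamma and beta clusters in replicate 1 (blue) and replicate 2 (orange). Error bars are Clopper-Pearson 95% intervals of counting error, hatched areas are the C-type isoforms, and gamma holds 53.4% and 55.0% while alpha holds 5.82% and 4.99%.

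The alpha cluster was dominated by a single gene, Pcdhac2, a C-type isoform known in mice for the tiling of serotonergic axons. Pcdhac2 (ENSMUSG00000102697.1, 37143503 to 37187657) had 747 reads in replicate 1 and 711 in replicate 2, or 28.9 and 24.0 CPM, a mean of 26.5 ± 3.45 CPM (SD, n = 2). It held 73.4% of the alpha reads in replicate 1 (95% interval 70.6 to 76.1) and 52.4% in replicate 2 (49.7 to 55.1). The other alpha C-type isoform, Pcdhac1, had 8 and 66 reads, or 0.310 and 2.23 CPM in replicates 1 and 2. Markers of serotonergic neurons were at or near 0: Slc6a4 and Fev had 0 reads in both libraries, and Tph2 had 2 and 8 reads, summing to 0.0774 and 0.271 CPM over the list of 3. Which cells the Pcdhac2 reads came from was not tested.

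Alternate alpha isoforms were low. The 12 genes together held 263 reads in replicate 1 and 580 in replicate 2, or 10.2 and 19.6 CPM. Pcdha5 had the highest mean, with 1.12 CPM in replicate 1 and 5.51 CPM in replicate 2. Pcdha12 stood at 3.79 and 2.27 CPM and Pcdha2 at 2.17 and 1.76 CPM in replicates 1 and 2. The order of the leading genes thus differed between the libraries, with Pcdha12 first in replicate 1 and Pcdha5 first in replicate 2. Pcdha3 followed at 0.465 and 2.81 CPM and Pcdha9 at 0.774 and 1.79 CPM. Among alpha isoforms with reads the lowest was Pcdha1, with 0 reads in replicate 1 and 33 in replicate 2, or 1.12 CPM. A count of 0 allows up to 0.116 CPM in replicate 1 (3 reads).

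Pcdha4, Pcdha6 and Pcdha7 had 0 reads in both libraries, which cannot be read as absence. The files also hold rows for Gm37013, Pcdha6-g and Pcdha7-g, which RefSeq (GRCm38.p6) places from 36952648, 36967631 and 36973802 to 37841873, that is from the starts of these 3 alpha genes to the end of the gamma cluster. These 3 rows were at 0 in both libraries as well. Whether reads of exons listed under both symbols were dropped as ambiguous was not tested. Ambiguous reads made up 1.84% of all reads in replicate 1 and 2.08% in replicate 2. Alternate alpha isoforms also share sequence: of the stretches of 50 bases in the unshared exon, 10.2% to 29.2% recurred in the transcript of another gene (median 15.1%), against 0% in both C-type isoforms.

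Gamma isoforms were led by Pcdhgc5, a C-type isoform whose protein is known to bind a GABA-A receptor subunit. Pcdhgc5 (ENSMUSG00000102543.5, 37819513 to 37841873) had 1569 reads in replicate 1 and 2841 in replicate 2, or 60.7 and 96.1 CPM, a mean of 78.4 ± 25.0 CPM (SD, n = 2). It ranked first of all 57 members by reads and by reads per kilobase in the mean of both libraries, and 2710 among all genes by mean CPM. It held 16.8% of the gamma reads in replicate 1 (95% interval 16.1 to 17.6) and 19.0% in replicate 2 (18.4 to 19.6). The other gamma C-type isoforms were lower. Pcdhgc3, which binds the Wnt pathway scaffold Axin1 and promotes dendrite branching, had 9.41 CPM in replicate 1 and 22.6 CPM in replicate 2. Pcdhgc4, the isoform needed for the survival of interneurons in mice, had 6.04 and 9.03 CPM.

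The 12 gamma A isoforms held 30.2% of all clustered protocadherin reads in replicate 1 and 29.7% in replicate 2, and the 7 gamma B isoforms 11.9% and 11.4%. Pcdhga3 had the highest mean of gamma A, with 29.7 CPM in replicate 1 and 33.9 CPM in replicate 2. Pcdhga5 followed with 26.5 and 35.7 CPM and Pcdhga9 with 28.3 and 25.3 CPM. These 3 changed order between the libraries, as did Pcdhga7 with 24.4 and 28.4 CPM and Pcdhga10 with 23.0 and 29.4 CPM. Pcdhga4 had the lowest mean CPM of gamma A, with 6.43 and 8.39 CPM, but only 1570 unshared bases. Per kilobase the lowest was Pcdhga2, with 1.87 and 4.85 CPM per kilobase against 4.09 and 5.34 for Pcdhga4. The opposite strand carries the antisense gene Gm26672 over all 2613 unshared bases of Pcdhga10. Without a stated strand setting, reads from an antisense gene cannot be told apart, which concerns 13 of the 57 members to some extent.

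Pcdhgb1 led gamma B in both libraries, with 30.0 CPM in replicate 1 and 28.6 CPM in replicate 2. Pcdhgb2 had 17.8 and 13.0 CPM, Pcdhgb7 10.7 and 15.4 CPM and Pcdhgb6 9.10 and 12.7 CPM. Pcdhgb5 differed more between the libraries, with 7.20 CPM in replicate 1 against 20.3 CPM in replicate 2. Pcdhgb8, listed by GENCODE as a polymorphic pseudogene, had the lowest mean of all gamma isoforms, both in CPM, at 1.97 and 6.32, and per kilobase, at 0.790 and 2.53. Of the sequence of Pcdhgb1 and Pcdhgb2, 16.8% and 17.9% recurred elsewhere at 50 bases, mostly in each other, so their counts may be split or lost.

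Beta genes were highest in the downstream part of their cluster. Pcdhb16 (ENSMUSG00000047910.6, 37477814 to 37483038) had 1184 reads in replicate 1 and 1890 in replicate 2, or 45.8 and 63.9 CPM. Pcdhb17 had 39.0 and 41.2 CPM, Pcdhb14 34.7 and 38.3 CPM and Pcdhb13 33.7 and 26.3 CPM. By CPM, Pcdhb16, Pcdhb17 and Pcdhb14 led the beta cluster in both libraries. By mean CPM per kilobase of GENCODE exon, Pcdhb16, Pcdhb17 and Pcdhb13 did. Pcdhb18, the fifth by mean, had 11.6 CPM in replicate 1 and 30.4 CPM in replicate 2, below Pcdhb13 in replicate 1 and above it in replicate 2. The lowest was Pcdhb1, the first gene of the cluster, with 9 and 70 reads or 0.348 and 2.37 CPM. The run from Pcdhb13 to Pcdhb20, 8 genes chosen after their values were seen, held 75.4% of the beta reads in replicate 1 and 67.9% in replicate 2.

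Across the 21 beta genes, Spearman's rho between order on the chromosome and mean CPM was 0.69, and 0.49 per kilobase of exon. The 11 downstream genes, from Pcdhb11 to Pcdhb22, had a median of 3.87 CPM per kilobase in replicate 1 and 5.19 in replicate 2. The 10 upstream genes had medians of 1.79 and 2.47. The same rho with mean CPM was 0.13 over the 12 alternate alpha and -0.07 over the 19 alternate gamma isoforms. The alpha value takes Pcdha4, Pcdha6 and Pcdha7 at counts of 0, which cannot be read as absence. These correlations describe genes that share libraries, depth and a locus, and they carry no p.

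**Figure D2:**
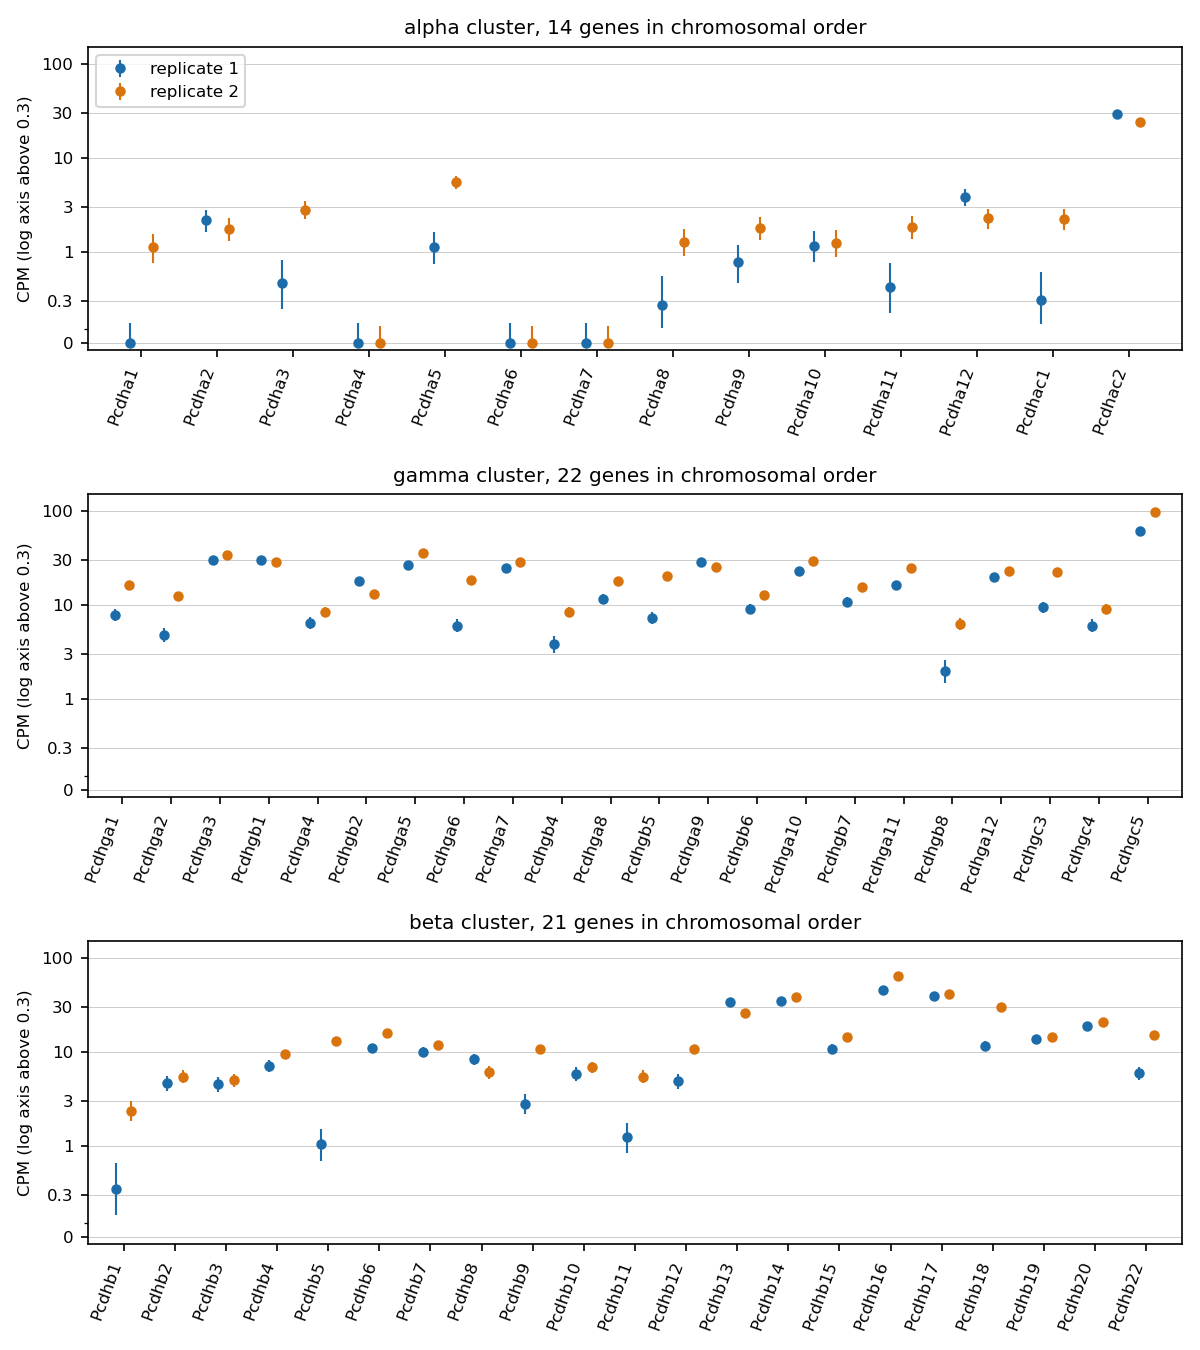
CPM of each of the 57 members (y axis, logarithmic above 0.3 CPM) in chromosomal order in the alpha, gamma and beta clusters, in replicate 1 (blue) and replicate 2 (orange). Bars are exact Poisson 95% intervals of counting error; Pcdhac2 at 28.9 and 24.0 CPM, Pcdhgc5 at 60.7 and 96.1 CPM and the downstream beta genes stand highest.

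Per kilobase of unshared exon, with GENCODE lengths, gamma isoforms stood above beta genes and alpha isoforms below them in the median. The gamma median was 4.24 CPM per kilobase in replicate 1 and 6.31 in replicate 2, and the beta median 2.06 and 3.49. The alpha median was 0.154 and 0.611, with the 3 alpha genes at 0 taken in. Gamma minus beta was 1.02 in replicate 1 and 0.84 in replicate 2 on the log2(CPM per kilobase + 0.05) scale, a mean of 0.93 ± 0.12 (SD, n = 2). Over all annotated exon, constant exons included, gamma minus beta was 0.12. Alpha minus beta was -3.39 in replicate 1 and -2.43 in replicate 2, a mean of -2.91 ± 0.68, and -2.37 without the 3 alpha genes at 0. With a pseudocount of 0.5 in place of 0.05 it was -1.91, since the alpha median is itself near the pseudocount. Members are not replicates, and with 2 libraries these differences have no test.

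With GENCODE lengths, the highest single isoforms on this scale came from the gamma cluster. Pcdhgc5 had 11.0 CPM per kilobase in replicate 1 and 17.4 in replicate 2, Pcdhga3 11.4 and 13.1, Pcdhga5 10.4 and 14.0 and Pcdhgb1 11.4 and 10.9. Pcdhb16 had 8.77 and 12.2 and Pcdhac2 9.55 and 7.94. The order of Pcdhgc5, Pcdhga3, Pcdhga5 and Pcdhgb1 changed between the libraries. Pcdhb14 ranked 4 by mean CPM among all members and 23 per kilobase, since GENCODE gives it 8695 bases of exon. RefSeq gives Pcdhb14 a span of 3438 bases, Pcdhb17 3270 against 4660 in GENCODE, and Pcdhb22 3067 against 6609. For others the sources were close, as for Pcdhb16 with 5271 and 5225. The annotation used for counting is not given. Levels per kilobase of beta genes, and their order beside gamma isoforms, thus depend on the GENCODE lengths.

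Counted reads were spread over many isoforms in gamma and beta and over few in alpha. In alpha, Pcdha4, Pcdha6 and Pcdha7 enter with 0 reads, which cannot be read as absence. The effective number of isoforms, the inverse of the summed squared read shares, was 1.81 in replicate 1 and 3.29 in replicate 2 for alpha, 13.4 and 13.7 for gamma, and 10.5 and 12.3 for beta. The 3 leading isoforms held 88.5% and 70.5% of the reads in alpha, 33.3% and 32.8% in gamma and 43.2% and 39.0% in beta. In RNA pooled from many cells, few cells with much RNA and many cells with little cannot be told apart, so these values do not give the number of isoforms per neuron.

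**Figure D3:**
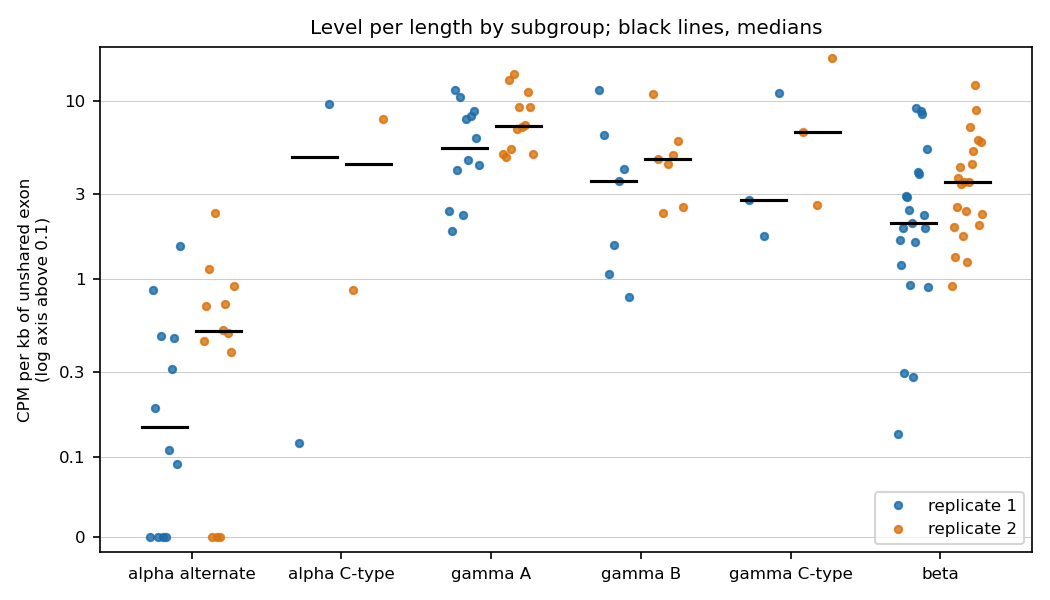
CPM per kilobase of unshared exon (y axis, logarithmic above 0.1) of each member by subgroup in replicate 1 (blue) and replicate 2 (orange). Each point is a gene and black lines are medians. Gamma A has medians of 5.40 and 7.22, beta 2.06 and 3.49, and the alternate alpha isoforms 0.149 and 0.510. The alternate alpha medians take in Pcdha4, Pcdha6 and Pcdha7 at 0.

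Between the libraries, every member past the test stood higher in replicate 2. For each gene, a 2-sided exact binomial test was run on its reads, with library sizes scaled by TMM, and a call needed a Benjamini-Hochberg adjusted p below 0.05 over all 16442 genes tested and at least a 2-fold ratio. This test compares 2 libraries of the same group and takes in counting error only, not the spread between animals. Of the 54 members tested, 21 (38.9%) were called higher in replicate 2 and 0 in the other direction. Of all genes, 20.7% were called higher in replicate 2 and 11.7% higher in replicate 1. Without the 2-fold requirement, 37 members were called higher in replicate 2 and 6 the other way, against 41.7% and 37.3% of all genes. Both counts with the 2-fold ratio, 21 and 0, were also found with DESeq2 size factors (20.7% and 11.8% of all genes), raw totals (20.9% and 11.4%), totals without the ribosomal precursor Rn45s (20.7% and 11.7%), no filter (19.8% and 10.9%) and the exon length trend removed (17.7% and 9.39%). The median log2 ratio, replicate 1 over replicate 2, was -0.49 over the members and -0.06 over all genes.

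Each cluster gave 7 of the 21, a split that rests on the filter for alpha. Among members at 1 CPM or more in both libraries the calls were 1 of 5 in alpha, Pcdha5, 7 of 22 in gamma and 6 of 20 in beta. Of the 21, 4 had under 10 reads in replicate 1 and met the minimum of 10 reads only through replicate 2, namely Pcdha1, Pcdha8, Pcdhac1 and Pcdhb1. In alpha they were Pcdha1, Pcdha3, Pcdha5, Pcdha8, Pcdha9, Pcdha11 and Pcdhac1, of 11 tested. Pcdha1, at 0 reads in replicate 1, had a log2 ratio of -3.25 or lower, taking 3 reads in that library as the floor, and the other 6 had log2 ratios from -2.76 (Pcdhac1) to -1.18 (Pcdha9). In gamma they were Pcdhga1, Pcdhga2, Pcdhga6, Pcdhgb4, Pcdhgb5, Pcdhgb8 and Pcdhgc3, of 22 tested, with log2 ratios from -1.65 (Pcdhgb8) to -1.03 (Pcdhga1). In beta they were Pcdhb1, Pcdhb5, Pcdhb9, Pcdhb11, Pcdhb12, Pcdhb18 and Pcdhb22, of 21 tested, with log2 ratios from -3.60 (Pcdhb5) to -1.10 (Pcdhb12).

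Pcdhb5 showed the widest gap of the members with reads in both libraries. It had 27 reads in replicate 1 and 384 in replicate 2, or 1.05 CPM (95% interval 0.689 to 1.52) and 13.0 CPM (11.7 to 14.3), with a log2 ratio of -3.60 (exact binomial test, adjusted p = 5.31e-70). Its neighbours on the chromosome did not share this gap. Pcdhb4 had 7.20 and 9.43 CPM and Pcdhb6 10.9 and 16.0 CPM in replicates 1 and 2. Pcdhb9 had 2.83 and 10.7 CPM, with a log2 ratio of -1.89 (exact binomial test, adjusted p = 6.61e-29). Pcdhb18 had a log2 ratio of -1.37 (exact binomial test, adjusted p = 2.53e-51) beside Pcdhb17 at -0.06 and Pcdhb19 at -0.05.

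The 33 tested members that did not pass had log2 ratios from -0.65 (Pcdhgc5) to 0.75 (Pcdha12), of which 8 were above 0 and 25 below 0. Those above 0 included Pcdhac2 at 0.28, Pcdhb13 at 0.37, Pcdhgb2 at 0.47 and Pcdhb8 at 0.49. Spearman's rho between the log2 ratio and mean CPM over the 54 was 0.46. Calls also varied with level over all genes, so the counts were set against genes of like level. Below a mean of 1 CPM the only members tested were Pcdha1 and Pcdha8, both called higher in replicate 2, as were 54.1% of genes there. Having met the minimum only through replicate 2, they say nothing of direction. At 1 to 5 CPM, 8 of 12 members were called higher in replicate 2, against 34.8% of genes. At 5 to 20 CPM it was 10 of 25, against 14.5%. At 20 to 100 CPM it was 1 of 15, Pcdhb18, against 3.73%. A limit on the mean can be met through replicate 2 alone, for members as for all genes. Of the members called at 1 to 5 CPM, Pcdha3, Pcdha9, Pcdha11, Pcdhac1 and Pcdhb1 were below 1 CPM in replicate 1. At 5 to 20 CPM, Pcdhb5, Pcdhb9, Pcdhb12, Pcdhga2 and Pcdhgb4 were below 5 CPM there, and Pcdhb18 was below 20 CPM. Direction and level are thus tied in these bands. Among members at 1 CPM or more in both libraries, 14 of 47 were called higher in replicate 2, against 9.53% of genes. The other way it was 0 members and 7.74% of genes. With a mean of 1 CPM or more, 19 of 52 members were called higher in replicate 2, against 14.1%. The other way it was 0 members and 9.91% of genes. Those 19 take in the members named above that were below 1 CPM in replicate 1. A mean of 10 CPM or more is a limit chosen after the data were seen. There 6 of 29 were called higher in replicate 2, against 4.84%, with 0 members and 5.84% of genes the other way. Of these 6, Pcdhb22, Pcdhga1, Pcdhga6, Pcdhgb5 and Pcdhgc3 were below 10 CPM in replicate 1.

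**Figure D4:**
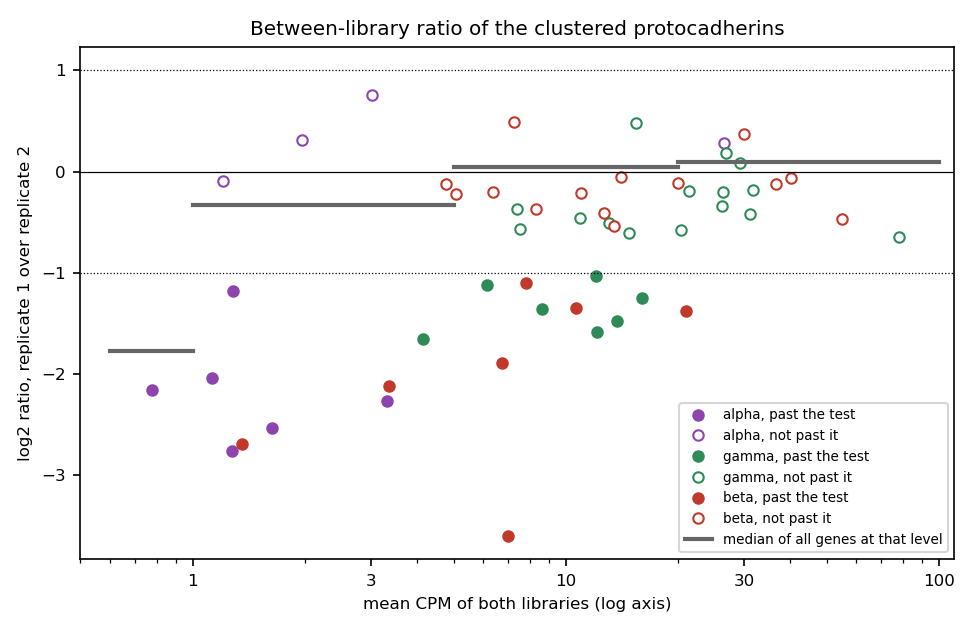
Log2 ratio of reads, replicate 1 over replicate 2 (y axis), against mean CPM (x axis, logarithmic) for 53 tested members, without Pcdha1, which had 0 reads in replicate 1. Filled points passed the exact binomial test with a 2-fold ratio, dotted lines mark that ratio, grey bars are medians of all genes at that level, and all 20 filled points lie between -3.60 and -1.03.

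The ranking of members was largely kept between the libraries, with a Spearman's rho of 0.93 over the 57 members as a description. As a description too, rho between the log2 ratio and the share of 50-base stretches found in other transcripts was -0.07 over the 54 tested members. The libraries also differed in general measures. Reads in genes covered 16441 genes in replicate 1 and 18230 in replicate 2, and 965 genes had 0 reads in replicate 1 with 10 or more in replicate 2, against 194 the other way. Reads with several alignments made up 27.9% and 13.6% of all reads in replicates 1 and 2, and reads outside annotated exons 22.8% and 31.0%.

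Some marker lists of other cells differed between the libraries and others did not, read against the 20.7% of all genes called higher in replicate 2 and the 11.7% called higher in replicate 1. Of 12 astrocyte markers, 8 were called higher in replicate 2 and 0 the other way, their summed level was 936 CPM in replicate 1 and 3087 CPM in replicate 2, and none was at 0. Of 6 nuclear RNAs 5 were called higher in replicate 2, with sums of 3911 and 10706 CPM. Smaller lists gave 2 of 4 oligodendrocyte precursor markers (60.0 and 145 CPM) and 1 of 2 glutamatergic markers (10.3 and 25.7 CPM), and 3 of 10 oligodendrocyte markers (1016 and 1564 CPM) is near the share of all genes. Of 6 microglia markers 0 were called, with sums of 164 and 122 CPM in replicates 1 and 2. Of 5 endothelial and mural markers 2 were called higher in replicate 1 and 1 higher in replicate 2 (27.9 and 27.2 CPM). Of 8 tested interneuron markers 1 was called, as higher in replicate 1 (192 and 275 CPM), while Vip, not tested, had 0 reads. Of 3 tested choroid plexus and ependyma markers 0 were called (49.8 and 43.0 CPM). Ttr and Folr1 of that list had 0 reads in both libraries and were not tested. Its sums came mostly from Clic6 (36.4 and 21.8 CPM) and Kl (12.7 and 20.5 CPM in replicates 1 and 2). Of 13 spiny projection neuron markers, the defining genes of most striatal neurons, all were above 1 CPM in the mean, with sums of 10401 and 9199 CPM. Only Tac1 of these passed, as higher in replicate 1. Of 7 immediate early genes 3 were called higher in replicate 1 (661 and 297 CPM). So was Stard5, whose regulatory sequence drives the tag, at 166 and 54.9 CPM. The part of these differences in the protocadherin values was not tested.

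Genes known to act on or beside the clustered protocadherins were compared between the libraries by the same test, again beside 20.7% of all genes called higher in replicate 2 and 11.7% higher in replicate 1. Most of the promoter regulators, intracellular partners, neurexins and neuroligins below had a mean above 20 CPM. At that level few genes were called higher in replicate 2 (3.73% at 20 to 100 CPM and 1.61% above). The other way it was 241 of 4418 and 28 of 2175 genes. Of 18 promoter regulators found, 2 were called higher in replicate 2 and 0 the other way, and the median log2 ratio was -0.07. Smchd1, a chromatin protein that silences clustered protocadherin genes, had 51.7 CPM in replicate 1 against 112 CPM in replicate 2. Dnmt3b, a DNA methyltransferase that methylates their promoters in the embryo, had 0 and 42 reads. Dnmt3b met the minimum of 10 reads only through replicate 2 and was not tested under either filter at 1 CPM. Of the cohesin genes, whose products with CTCF loop promoters to enhancers, Smc3 stood at 444 and 444 CPM and Smc1a at 404 and 447 CPM in replicates 1 and 2. Rad21 stood at 158 and 239 CPM, Stag1 at 85.9 and 128 CPM and Stag2 at 83.2 and 116 CPM, all under the 2-fold ratio, with adjusted p below 0.05 before that ratio was asked for. Of 19 partners that act below the intracellular domains, 1 was called higher in replicate 2 and 0 the other way. It was Cyfip1, a subunit of the WAVE actin regulator, at 47.0 and 104 CPM, while its paralogue Cyfip2 stood at 1278 and 1542 CPM.

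Of 8 genes of the proteases that cut protocadherins, 1 passed as higher in replicate 2, the gamma-secretase gene Aph1c at 7.36 and 19.3 CPM, and Adam10 stood at 49.4 and 67.3 CPM. Of the 6 neurexin and neuroligin genes 0 passed with the 2-fold ratio in either direction, with adjusted p below 0.05 in 5 of them before that ratio was asked for. Of 15 tested genes that flank the locus, 5 were called higher in replicate 2 and 2 the other way, against 20.7% and 11.7% of all genes. Of those 5, Cd14, Dnd1 and Fchsd1 had under 10 reads in replicate 1 and met the minimum only through replicate 2. Between the beta and gamma clusters lie Taf7, a subunit of a general transcription factor, with 310 and 381 reads in replicates 1 and 2, and Slc25a2, a mitochondrial carrier gene, with 0 and 1 read. Just downstream of the gamma cluster lies the formin gene Diap1, with 16.2 CPM in replicate 1 against 37.2 CPM in replicate 2, past the test. Upstream of alpha, Zmat2 stood at 145 and 81.6 CPM.

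The 10 non-clustered delta protocadherins, relatives that lie outside these 3 clusters, gave 0 calls in either direction with the 2-fold ratio, with a median log2 ratio of -0.21. A mean of 20 CPM or more was reached by 7 of them, a level at which few genes were called higher in replicate 2 (3.73% at 20 to 100 CPM and 1.61% above). Without that ratio 6 were called higher in replicate 2 and 2 the other way, against 41.7% and 37.3% of all genes. Per kilobase of exon they ranged from 0.980 to 23.8 CPM in replicate 1 and from 1.05 to 33.0 CPM in replicate 2, with medians of 9.71 and 12.8. Pcdh9 led with 23.8 CPM per kilobase in replicate 1 and 33.0 in replicate 2, above every clustered member in both libraries. Pcdh17, with 19.7 and 17.7, and Pcdh10, with 16.5 and 20.3, also stood above Pcdhgc5, with 11.0 and 17.4, in both. The gap between Pcdh17 and Pcdhgc5 was small in replicate 2. Delta genes were divided by all annotated exon and clustered members by unshared exon, so these scales are not the same. The lowest was Pcdh20, with 0.980 and 1.05 CPM per kilobase.

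**Figure D5:**
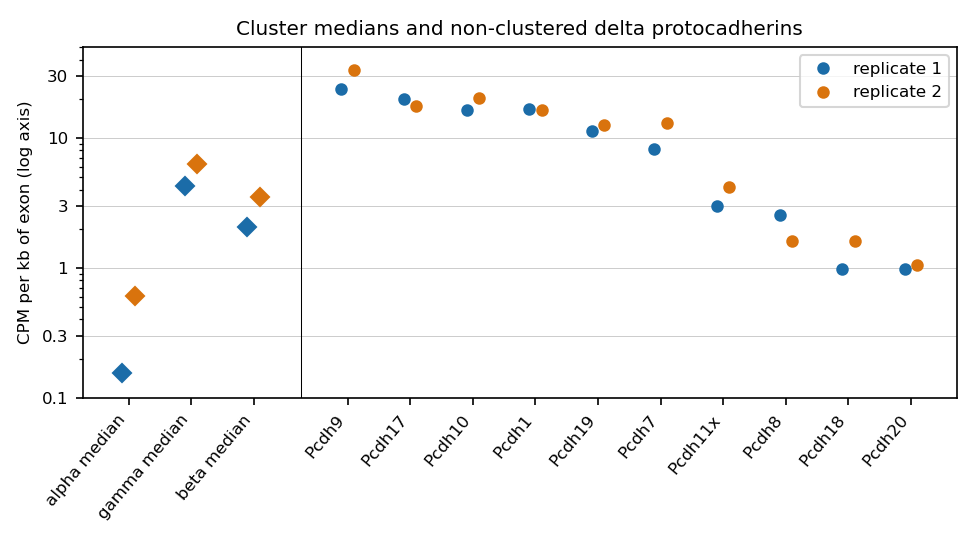
CPM per kilobase of exon (y axis, logarithmic) in replicate 1 (blue) and replicate 2 (orange): diamonds are medians of the alpha, gamma and beta clusters over unshared exon, and circles are the 10 delta protocadherins over all annotated exon. Pcdh9 stands at 23.8 and 33.0 and the gamma median at 4.24 and 6.31.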

How the data were processed

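The deposited values are raw counts of reads for each symbol, made with STAR 2.0.0e, HTSeq and the mouse build mm10, per the submitters' processing notes. Annotation, strand setting and counting mode: not given in the sources used here. Left out were 6 rows that name no gene, of which those for reads outside exons, ambiguous reads and reads with several alignments held reads, and their shares stand beside the results they touch. CPM used the totals over genes. Lengths came from GENCODE M21 (GRCm38): 16442 genes were tested and 87.2% of them had a length, and Pcdha10, for which GENCODE repeats the symbol Pcdha11, was matched by its RefSeq start. Unshared exon is exon outside every other GENCODE gene whose symbol has a row in the files. RefSeq exons were not used for this. Exon that Pcdha4, Pcdha6 or Pcdha7 may share with Gm37013, Pcdha6-g or Pcdha7-g can thus count as unshared. Pcdhb21 is not analysed here. Tests were run in SciPy 1.17.1 with edgeR 4.0.16 for TMM, and DESeq2 1.42.0 size factors were an alternative. The binomial test was checked on simulated counts that held counting error alone, the error it assumes. That check says nothing of spread between libraries. Members and lists were chosen with earlier results of these data known. Named were the C-type members, the 5 highest and the lowest of each subgroup by mean CPM, all past the test, and the highest, the lowest and those past the test of other lists, of which some are not printed; genes beyond this were chosen after their values were seen.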

Additional observations from a re-analysis of the deposited data

How the results depend on the processing

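No paired analysis was possible because the libraries form a single group, and without either library the between-library test has no comparison. Of the members, 21 were called higher in replicate 2 and 0 the other way, and these counts were 21 and 0 with DESeq2 size factors, raw totals, totals without Rn45s, no filter and the exon length trend removed, 14 to 19 and 0 with filters at 1 CPM, 37 and 6 without the 2-fold requirement, and 6 and 0 at a mean of 10 CPM or more. With the length trend removed, the log2 ratio of Pcdhb14 was 0.011 and that of Pcdhb19 0.036, on the other side of 0 and not called. Of 76 tested genes in the 6 related lists (delta protocadherins, promoter regulators, downstream partners, proteolysis, synaptic partners and flanking genes), 9 were called higher in replicate 2 and 2 the other way, against 20.7% and 11.7% of all genes. These counts were 5 and 2 of 72 with either filter at 1 CPM (9.53% and 7.74% of genes in both libraries, 14.1% and 9.91% in the mean), 36 and 25 of 76 without the 2-fold requirement (41.7% and 37.3%), 6 and 1 of 74 with the length trend removed (17.7% and 9.39%) and 4 and 1 of 63 at 10 CPM (4.84% and 5.84%). Per kilobase the shares of alpha, gamma and beta were 6.69%, 60.9% and 32.4%, and without C-type members 2.17%, 49.6% and 48.2%. Alpha minus beta was -3.77 over all exon and -1.91 with a pseudocount of 0.5, and gamma minus beta was 0.48 in CPM and 0.12 over all exon. The rank correlation of level with position was 0.49 for beta and -0.16 for alternate gamma isoforms per kilobase. Without replicate 1 or 2, shares ran from 4.99% to 5.82% (alpha), 53.4% to 55.0% (gamma) and 40.0% to 40.8% (beta), alpha minus beta from -3.39 to -2.43 and gamma minus beta from 0.84 to 1.02. The rank correlation of CPM with position ran from 0.19 to 0.34 (alternate alpha), -0.070 to -0.044 (alternate gamma) and 0.65 to 0.73 (beta). Its alpha values take Pcdha4, Pcdha6 and Pcdha7 at 0. The median member ran from 7.20 to 12.7 CPM.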
